A study of Mus musculus with 6 samples.

Results

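Mediator is a large protein complex that carries signals from DNA-bound transcription factors, nuclear receptors among them, to RNA polymerase II. Its head and middle modules contact the polymerase, its tail receives activators, and a detachable kinase module built on Cdk8 and cyclin C restrains or redirects it. Nuclear receptors such as PPARγ also recruit p160 coactivators (Ncoa1, Ncoa2 and Ncoa3), acetyltransferases and corepressors. The released polymerase is pushed into elongation by P-TEFb, a pair of Cdk9 with a T-type cyclin.

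The genes described here are 42 Mediator subunits, nuclear receptor coregulators and P-TEFb subunits, chosen by name. They were chosen with earlier results of these data known, so the shares of them that pass a test are only a description. Of them 34 had a probe on the array annotated to that gene only, out of 13840 genes with such a probe, and each was read at its brightest probe over all 6 samples. Ncoa4 had a pair of probes and every other member had 1. The other 8 (Med12, Med13, Med20, Med23, Med28, Ncor1, Crebbp and Ep300) were not analysed here, so the acetyltransferases, most of the kinase module's scaffold and the main corepressor of unliganded receptors are missing from the account.

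RNA came from RAW 264.7 cells, a mouse macrophage-like line, in 2 groups of 3 biological replicates, each a pool of 6 wells. The 15-HETE + LPS group received 40 μM 15(S)-HETE, a hydroxylated fatty acid made from arachidonic acid and a proposed ligand of PPARγ, followed at once by the bacterial endotoxin LPS at 1 μg/mL. The LPS group received the same LPS alone, and both were collected after 24 h. Neither group shows these genes in unstimulated cells, and a vehicle for 15-HETE is not given in the sources used here. RNA of whole pools was measured, so fewer cells expressing a gene and less RNA per cell cannot be told apart.

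Values are chemiluminescent intensities in arbitrary units, quantile normalized by the authors, with a median of 837 over the array. Differences are log2 fold changes, 15-HETE + LPS minus LPS, with their standard error (SE), tested by limma over 33012 probes with Benjamini-Hochberg adjustment and calls at an adjusted p under 0.05. Limma's default prior draws the variance of every probe toward 1 common value, while dim probes on this array are noisier than bright ones. Results with a prior that follows intensity (the intensity trend) are therefore given beside those of the default prior. All 8 measured macrophage markers of 12 listed lay above the array median. Their summed intensity was 3674176 to 3809557 after 15-HETE and LPS, against 2549468 to 3304755 after LPS alone. Lyz2 made up most of that difference, with means of 2573370 and 2119350 (log2 fold change 0.30, limma adjusted p = 0.464). The log2 fold changes of these 8 markers ran from 0.02 to 0.51, and none of them passed either fit. Of the markers of other cell types, 4 of 5 fibroblast, 1 of 4 epithelial, 1 of 4 measured lymphocyte, 1 of 3 neuronal and the only measured erythroid gene lay above the median. Summed intensities were 12861 to 15207 after 15-HETE, against 21563 to 26992 after LPS alone, for the fibroblast list, and 1989 to 3643 against 4260 to 5087 for the epithelial list. In each list a single gene made up most of the difference between these sums. Dcn had a log2 fold change of -1.30 (limma adjusted p = 0.0587, with the intensity trend 0.00298) and Krt8 of -1.05 (limma adjusted p = 0.112, with the intensity trend 0.0380). The other fibroblast genes ran from -0.49 for Col1a1 to 0.48 for Col3a1 and the other epithelial genes from -0.23 for Krt5 to 0.42 for Epcam, and none of them passed either fit. The part of these marker genes in the results was not tested. For 47.3% of all probes LPS replicate 1 lay farthest from the median of the LPS samples. The other replicates did so for 27 and 25.7%. The sources used here do not say which arrays were run together, so an effect of such sets was not tested. Titles of the 15-HETE + LPS samples carry a code that those of the LPS samples lack. Had the groups been run as separate sets, that difference could not be told apart from an effect of 15-HETE.

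At an adjusted p under 0.05 limma called 0 of the 34 members higher and 0 lower, where it called 0.509% of all probes higher and 0.442% lower, 0.951% in either direction. At an unadjusted p under 0.05, 7 members were higher and 8 lower, beside 19.6% of all probes in either direction, 21.4% of all genes read at their brightest probe and 27.1% of the genes above the array median. The members' share was 44.1%. The intensity trend put 6 members past the call upward (Med1, Med6, Med18, Med21, Ccnc and Cdk9) and 5 downward (Med15, Ncoa1, Ncoa3, Ccnt1 and Ccnt2), which is 32.4% of the members. The same fit called 3.87% of all probes higher and 4.96% lower, 8.84% in all, 11.2% of all genes, and 17.3% of the 8600 genes whose brightest probe lay above the array median, as the probes of all 34 members did. The methods' t-test, adjusted over all probes, called 0 members and 0 probes of the array. Its fold rule, 1.8-fold against the LPS mean in at least 2 of 3 treated samples, was met by 3 members upward (Cdk9, Med1 and Ncoa2) and 5 downward (Med14, Med15, Med29, Ncoa1 and Ncoa3). The shares were 6.88% upward and 10.3% downward of all probes, and 6.30% and 6.48% of the genes above the array median. Among these members the groups overlapped for Ncoa2, Med14 and Med29.

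The 34 members had no common direction. Their median log2 fold change was 0.10, with 20 above 0 and 14 below, beside a median of 0.02 over all genes and 0.01 over all probes. Values ran from -1.18 for Med14 to 1.06 for Cdk9. The 3 samples treated with 15-HETE and the 3 with LPS alone did not overlap for 20 members, 10 higher and 10 lower. That is 58.8% of them, beside 30.0% of all probes, 35.3% of all genes and 47.8% of the brighter genes. For each of these 20 an exact two-sided permutation test gave p = 0.1, the smallest that 3 samples against 3 allow. Nor was any split along the modules complete, since every module with more than 1 measured subunit held values on both sides of 0.

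**Figure D1:**
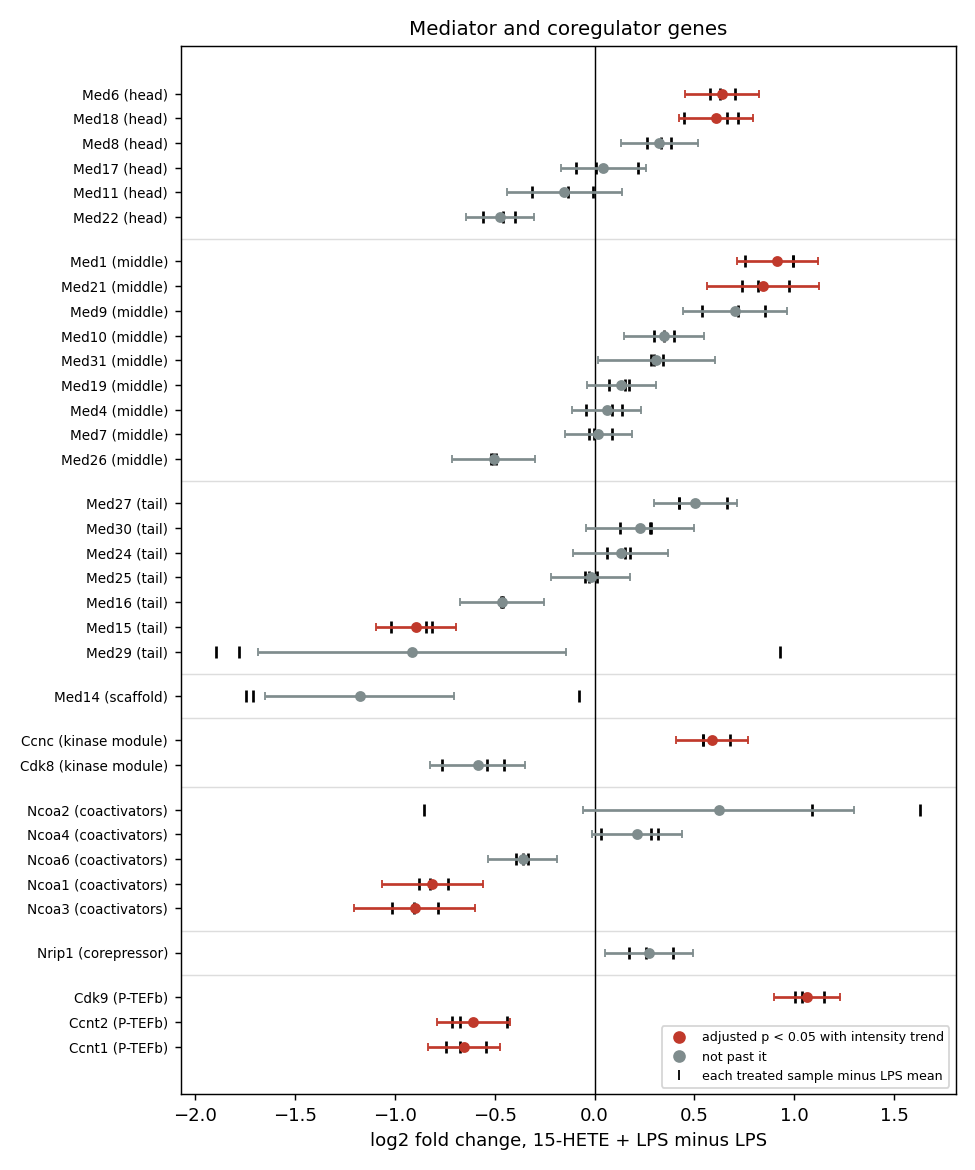
Log2 fold change (15-HETE + LPS minus LPS) of the 34 members, grouped by role, with limma's standard error (SE) as bars and each treated sample minus the LPS mean as black ticks. Red points have an adjusted p under 0.05 with the intensity trend: 6 lie to the right of 0 and 5 to the left, with Cdk9 highest at 1.06.

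All 3 subunits of P-TEFb separated the groups, as 47.8% of the brighter genes did. Cdk9 is its kinase, which phosphorylates the polymerase tail and the factors that hold the polymerase near the start of genes. Its intensity was 35599, 33012 and 32225 in the 15-HETE + LPS samples, against 15808, 16626 and 15768 in the LPS samples. The groups lay far apart and both were tight, at 33612 ± 1765 and 16068 ± 484 (SD, n = 3 each). Cdk9 was 2.09-fold higher after 15-HETE, a log2 fold change of 1.06 (SE 0.16) that just missed the call (adjusted p = 0.0517 from limma) and passed it with the intensity trend (adjusted p = 0.00100). It also passed limma with 50 added to every intensity (adjusted p = 0.0418), among brighter probes (0.00736) and with probes averaged by gene (0.024). It missed the call with limma's robust prior (adjusted p = 0.0598) and with same-numbered samples as a block (0.208, with the intensity trend 0.00352). The methods' unequal-variance test, adjusted over all probes, did not call it (adjusted p = 0.0823). It was the only member past that test over just the 5676 probes that met the fold rule (adjusted p = 0.0197). Those probes were picked by the same group difference, so that pass is no separate evidence.

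The cyclin partners of Cdk9 lay the other way. Ccnt1, the cyclin used by most P-TEFb, had 7992, 9172 and 8383 in the 15-HETE + LPS samples, against 14924, 12145 and 13215 in the LPS samples. Every treated sample lay below every LPS sample, with a log2 fold change of -0.65 (SE 0.18, limma adjusted p = 0.129, with the intensity trend 0.0189). Ccnt2, its paralog, had 8356, 9850 and 8138 with 15-HETE, against 14592, 13135 and 12376 with LPS alone. The groups again did not overlap, and the log2 fold change was -0.61 (SE 0.18, limma adjusted p = 0.149, with the intensity trend 0.0269). With any 1 of the 6 samples left out, Cdk9 ran from 1.02 to 1.09, Ccnt1 from -0.72 to -0.58 and Ccnt2 from -0.69 to -0.54.

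The promoters of these 3 genes are shown because the kinase and its cyclins lay on opposite sides of 0. Each is the RefSeq window of GRCm38.p6 from 250 bases before to 50 after the gene's start, written along the gene's strand. Capitals mark matches, on either strand and allowed to overlap, to the TATA box (TATAAA), the CCAAT box, the GC box (GGGCGG), an ETS core (CCGGAA), the PPAR direct repeat (AGGTCA, any base, AGGTCA) and an NF-κB site (GGGA, any base, TTTCC). Cdk9 is at chr2:32712735-32713034 on the minus strand, Ccnt1 at chr15:98567687-98567986 on the minus strand and Ccnt2 at chr1:127773914-127774213 on the plus strand.
Cdk9: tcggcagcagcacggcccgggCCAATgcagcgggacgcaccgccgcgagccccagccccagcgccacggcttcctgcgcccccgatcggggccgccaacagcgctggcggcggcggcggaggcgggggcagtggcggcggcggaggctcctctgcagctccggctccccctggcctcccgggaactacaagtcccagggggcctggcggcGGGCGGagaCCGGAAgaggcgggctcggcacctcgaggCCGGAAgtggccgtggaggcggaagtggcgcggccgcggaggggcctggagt
Ccnt1: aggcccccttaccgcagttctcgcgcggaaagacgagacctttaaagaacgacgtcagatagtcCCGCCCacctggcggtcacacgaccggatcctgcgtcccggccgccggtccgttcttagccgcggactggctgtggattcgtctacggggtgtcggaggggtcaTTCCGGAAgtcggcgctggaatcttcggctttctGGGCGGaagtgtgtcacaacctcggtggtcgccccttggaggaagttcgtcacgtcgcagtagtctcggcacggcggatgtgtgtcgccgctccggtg
Ccnt2: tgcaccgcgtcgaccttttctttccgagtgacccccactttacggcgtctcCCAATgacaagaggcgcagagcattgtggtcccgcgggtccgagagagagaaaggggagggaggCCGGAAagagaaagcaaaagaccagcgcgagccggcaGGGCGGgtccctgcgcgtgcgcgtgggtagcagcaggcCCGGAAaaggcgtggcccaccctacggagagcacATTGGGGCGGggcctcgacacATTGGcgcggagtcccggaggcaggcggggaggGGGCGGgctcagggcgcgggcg
All 3 windows held a GC box and an ETS core, and none held a TATA box. G and C made up 78.3% of the window of Cdk9, 63.7% of that of Ccnt1 and 68.3% of that of Ccnt2. Of the 34 members 29 had a window. Of these 20 (69%) held a GC box, 15 (51.7%) an ETS core, 13 (44.8%) a CCAAT box and 4 (13.8%) a TATA box. Among all 32851 windows the shares were 35.7%, 14.9%, 37.4% and 13.6%. The units differ, since a member counted if any of its windows held the match, while the other shares count single windows. Windows of genes as bright as the members were not counted apart. The PPAR repeat and the NF-κB site as spelled were in 0 of the 29, and in 0.0396% and 0.411% of all windows. A match is a description of letters and not a bound site.

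In the kinase module of Mediator the kinase and its cyclin also lay on opposite sides of 0. Ccnc, cyclin C, had 15525, 14118 and 14138 in the 15-HETE + LPS samples, against 8688, 10797 and 9708 in the LPS samples. The groups did not overlap, and its log2 fold change was 0.59 (SE 0.18, limma adjusted p = 0.152, with the intensity trend 0.0262). Cdk8, the kinase it activates, had 11089, 13741 and 12979 with 15-HETE, against 24852, 16156 and 16681 with LPS alone. All treated samples lay lower, by -0.59 on the log2 scale (SE 0.24), without passing the call (adjusted p = 0.248 from limma and 0.0799 with the intensity trend). LPS replicate 1 was the highest Cdk8 value, and without it the log2 fold change was -0.39. Cdk19, the Cdk8 paralog that can take its place, is no member and had a log2 fold change of 0.48 with overlapping groups.

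The TFIIH kinase, which phosphorylates the polymerase as it leaves the promoter, was singled out after its values were seen. Cdk7 had 19136, 16770 and 18267 in the 15-HETE + LPS samples, against 7965, 11606 and 10124 in the LPS samples, a log2 fold change of 0.88 (adjusted p = 0.102 from limma and 0.00991 with the intensity trend). Its cyclin Ccnh had 942, 1019 and 908 with 15-HETE, against 1521, 1698 and 1494 with LPS alone, a log2 fold change of -0.72 (adjusted p = 0.103 from limma and 0.172 with the intensity trend). Mnat1, which holds the pair together, was higher at 0.53 (adjusted p = 0.190 from limma and 0.0320 with the intensity trend). Cdk8 and Ccnh passed neither fit, each gene was read at 1 probe, and no test compared kinases with cyclins.

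**Figure D2:**
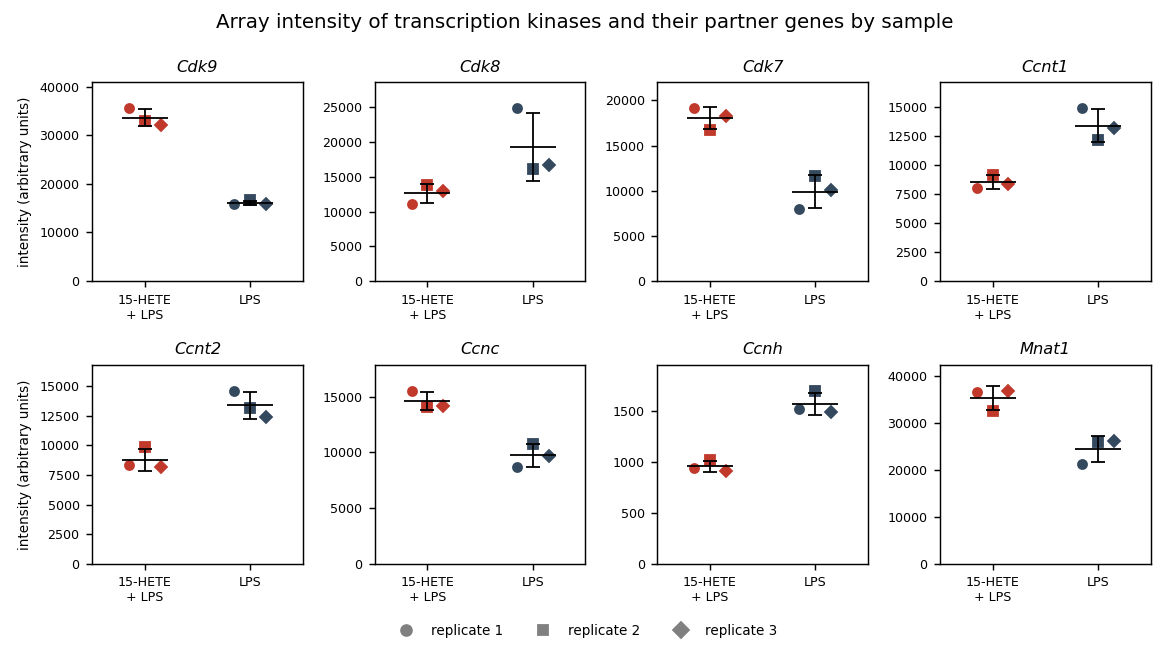
Array intensity (arbitrary units) of transcription kinases, their cyclins and Mnat1 in the 3 15-HETE + LPS samples (red, left) and the 3 LPS samples (dark, right), with symbols for the replicate, a line at the mean and bars of 1 SD. The groups do not overlap in any of the 8 panels, as for 47.8% of genes above the array median. Cdk9, Cdk7, Ccnc and Mnat1 are higher after 15-HETE and Cdk8, Ccnt1, Ccnt2 and Ccnh lower. The genes were picked by hand, those of TFIIH after their values were seen, and Cdk19, whose groups overlap, is not shown.

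In the middle module Med1, the subunit that docks nuclear receptors including PPARγ, had 3617, 3612 and 3063 in the 15-HETE + LPS samples, against 2096, 1528 and 1861 in the LPS samples. All 3 treated samples lay above all 3 LPS samples, and the means were 3431 ± 319 and 1829 ± 285 (SD, n = 3 each). The difference of 1.89-fold, 0.92 on the log2 scale (SE 0.20), did not pass limma (adjusted p = 0.0894) and passed with the intensity trend (adjusted p = 0.0335). Without LPS replicate 1 it was 1.02, and over all 6 samples left out in turn it ran from 0.79 to 1.02.

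Med21, a small subunit at the hinge of the middle module, had 26477, 23793 and 22476 in the 15-HETE + LPS samples, against 9136, 15818 and 16897 in the LPS samples. LPS replicate 1 lay well below the other LPS samples, and the log2 fold change was 0.85 with all samples (SE 0.28, limma adjusted p = 0.179, with the intensity trend 0.0413) and 0.57 without that replicate. Med9, another small middle subunit, was similar, with 17079 to 21241 against 8435 to 14535, a log2 fold change of 0.70 that was 0.47 without LPS replicate 1 (adjusted p = 0.216 from limma and 0.0610 with the intensity trend). Med10, a core middle subunit, was higher in every treated sample at 0.35 (adjusted p = 0.394) and was at 0.20 without LPS replicate 1. Med31, Med19, Med4 and Med7 had log2 fold changes of 0.31, 0.13, 0.06 and 0.02 with overlapping groups. Med26, which recruits elongation factors to Mediator, was the only middle subunit below 0, at 11271 to 11476 in the 15-HETE + LPS samples, against 13921 to 20336 in the LPS samples (log2 fold change -0.51, adjusted p = 0.255). Of the 9 middle subunits 8 thus had a positive value and 2 (22.2%) passed with the intensity trend, beside 17.3% of the brighter genes. Without LPS replicate 1 there were 7 positive values, with Med7 at -0.03 and Med31 at 0.01, and the median of the module was 0.18 beside 0.31 with every sample.

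The head module, the part of Mediator that binds the polymerase most tightly, had 6 measured subunits. Of these 2 (33.3%) were past the call with the intensity trend, beside 17.3% of the brighter genes. Med6, a conserved contact between head and middle, had 17481, 18413 and 16905 in the 15-HETE + LPS samples, against 9771, 11574 and 12808 in the LPS samples. Its groups did not overlap, and the log2 fold change was 0.64 (SE 0.19, limma adjusted p = 0.142, with the intensity trend 0.0211). Med18, which forms the movable jaw of the head with Med20, had 7741, 6401 and 7430 with 15-HETE, against 4307, 5240 and 4596 with LPS alone. It was 1.53-fold higher, 0.61 on the log2 scale (SE 0.19, limma adjusted p = 0.153, with the intensity trend 0.0450). Med8 was at 0.33 and Med22 at -0.47, each without overlap of the groups and without passing, and Med8 was at 0.19 without LPS replicate 1. Med17, the head's central subunit, had 0.04 and Med11 had -0.15, with overlapping groups.

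Med15, a tail subunit that receives activators and was linked to lipid gene regulation through SREBP, lay lowest among the Mediator subunits other than the dim Med14 and Med29. Its intensity was 20634, 17900 and 20204 in the 15-HETE + LPS samples, against 43938, 33630 and 32345 in the LPS samples. The groups were far apart, at 0.538-fold or -0.89 on the log2 scale (SE 0.20), which missed limma's call (adjusted p = 0.0925) and passed with the intensity trend (adjusted p = 0.00644). Only Med15 and Cdk9 passed that fit in each of the 6 runs that left out 1 sample.

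The other tail subunits were mixed. Med16 was lower at -0.46 (adjusted p = 0.292), with treated samples at 9649 to 9717, against 11687 to 16936 in the LPS samples, and without LPS replicate 1 it was -0.29. Med27 was higher at 0.50 (adjusted p = 0.255), and both fell short of the call in the trend fit too. Med30, Med24 and Med25 had 0.23, 0.13 and -0.02 with overlapping groups. Med29 was the dimmest member and its treated samples disagreed, at 327, 2322 and 355, against 1104, 1050 and 1560 in the LPS samples. The 15-HETE replicate with 2322 lay above every LPS sample, so its log2 fold change of -0.92 came with an SE of 0.77 (adjusted p = 0.555).

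Med14, the scaffold that joins head, middle and tail, had the lowest fold change of all members, but on a dim and scattered probe. It had 474, 486 and 1509 in the 15-HETE + LPS samples, against 1760, 1612 and 1419 in the LPS samples. Treated replicate 3 lay within the LPS range, and the log2 fold change was -1.18 (SE 0.48, limma adjusted p = 0.247, with the intensity trend 0.171). Without that treated replicate it was -1.73.

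Among the coactivators the p160 proteins, which bridge ligand-bound receptors to acetyltransferases, differed from one another. Ncoa1, or SRC-1, had 10630, 9587 and 9974 in the 15-HETE + LPS samples, against 24627, 15295 and 14630 in the LPS samples. The groups did not overlap (log2 fold change -0.81, SE 0.25, limma adjusted p = 0.158, with the intensity trend 0.0322). Ncoa3, or SRC-3, had 17539, 19118 and 16271 with 15-HETE, against 50770, 25103 and 27912 with LPS alone. All treated samples lay lower (log2 fold change -0.90, SE 0.30, limma adjusted p = 0.183, with the intensity trend 0.0432). For both genes LPS replicate 1 was far above the other LPS samples, and without it the log2 fold changes were -0.57 and -0.59.

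Ncoa2, the remaining p160 gene, was dim and inconsistent, with 694, 3890 and 2668 in the 15-HETE + LPS samples, against 1403, 804 and 1753 in the LPS samples (log2 fold change 0.62, SE 0.68, adjusted p = 0.654). Ncoa6, a larger coactivator found with histone methyltransferases, was lower in every treated sample, at 75173 to 78495, against 92222 to 110113 in the LPS samples (-0.36, adjusted p = 0.310 from limma and 0.0925 with the intensity trend). Ncoa4, best known as the receptor that sends ferritin to the lysosome, had 0.21 at its brightest probe and 0.60 at the other (adjusted p = 0.644 and 0.183 from limma). At the dimmer probe all treated samples were above all LPS samples and the call was passed with the intensity trend (adjusted p = 0.0399). The difference between the probes was not tested. Nrip1, or RIP140, a ligand-dependent corepressor with roles in macrophage inflammation, had 4673, 4011 and 4265 in the 15-HETE + LPS samples, against 4327, 3682 and 2843 in the LPS samples. These ranges overlapped (log2 fold change 0.27, SE 0.22, adjusted p = 0.534).

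**Figure D3:**
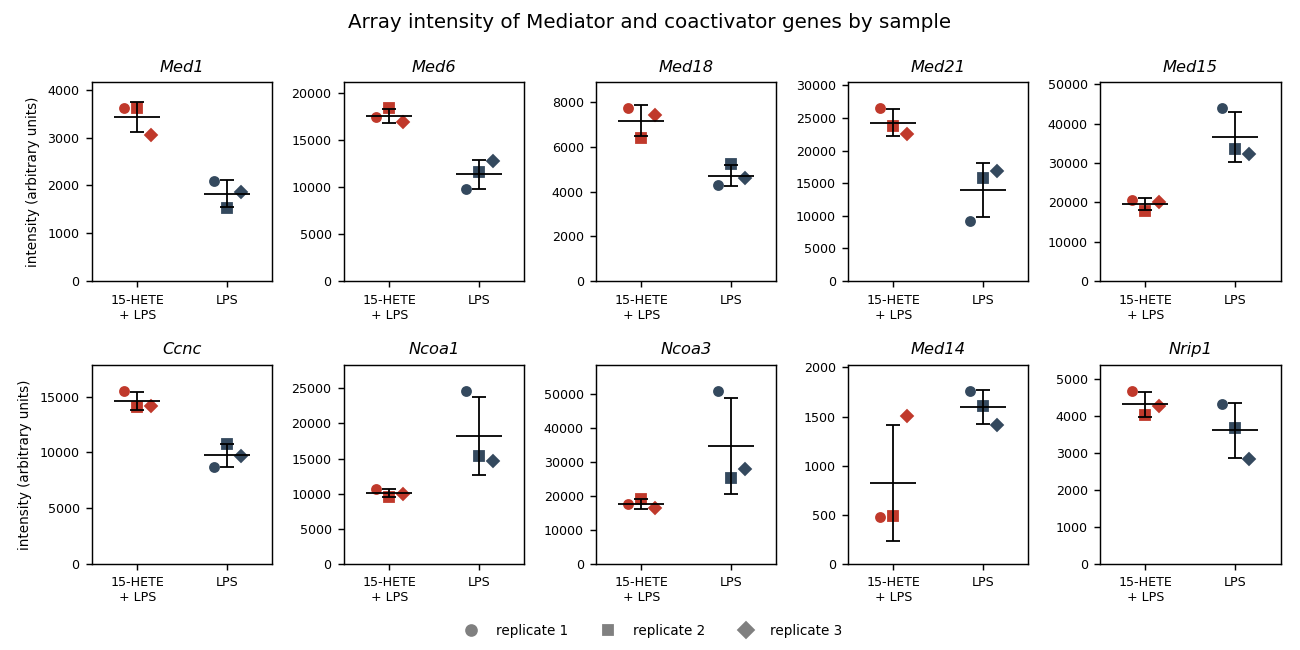
Array intensity (arbitrary units) of 10 Mediator, coactivator and corepressor genes in the 3 15-HETE + LPS samples (red, left) and the 3 LPS samples (dark, right), with symbols for the replicate, a line at the mean and bars of 1 SD. Groups overlap for Med14 and Nrip1, and LPS replicate 1 (circle) stands apart from the other LPS samples for Med21, Ncoa1 and Ncoa3.

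LPS replicate 1 stood apart among the LPS samples. For 25 of the 34 members (73.5%) LPS replicate 1 lay farthest from the median of the LPS samples, beside 53.5% of all genes. It was the highest LPS value for 18 members and the lowest for 12. The median SD on the log2 scale was 0.098 among 15-HETE + LPS samples and 0.257 among LPS samples for the members, beside 0.23 and 0.292 for all genes. Leaving this replicate out brought 22 of the 34 log2 fold changes (64.7%) closer to 0, beside 50.7% of all genes. The sign was kept for 31 members, Med7, Med25 and Med30 being the exceptions. The median size of the change was then 0.41, beside 0.50 with all 6 samples. Over all genes it was 0.357, beside 0.369 with all 6 samples. Genes as bright as the members were not compared apart for these measures. The groups did not overlap for 16 higher and 11 lower members without it, beside 3534 higher and 3162 lower of all 13840 genes. Fewer samples separate more easily by chance, so these counts cannot be set against those from all 6 samples. With the intensity trend 8 members were then called higher and 10 lower, and all 11 called with every sample were among these 18. That fit called 2595 probes of the array higher and 2540 lower, against 1279 and 1638 with every sample. Without any 1 of the other 5 samples it called 2 to 5 members. In those runs it called 535 to 727 probes of the array higher and 688 to 938 lower.

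**Figure D4:**
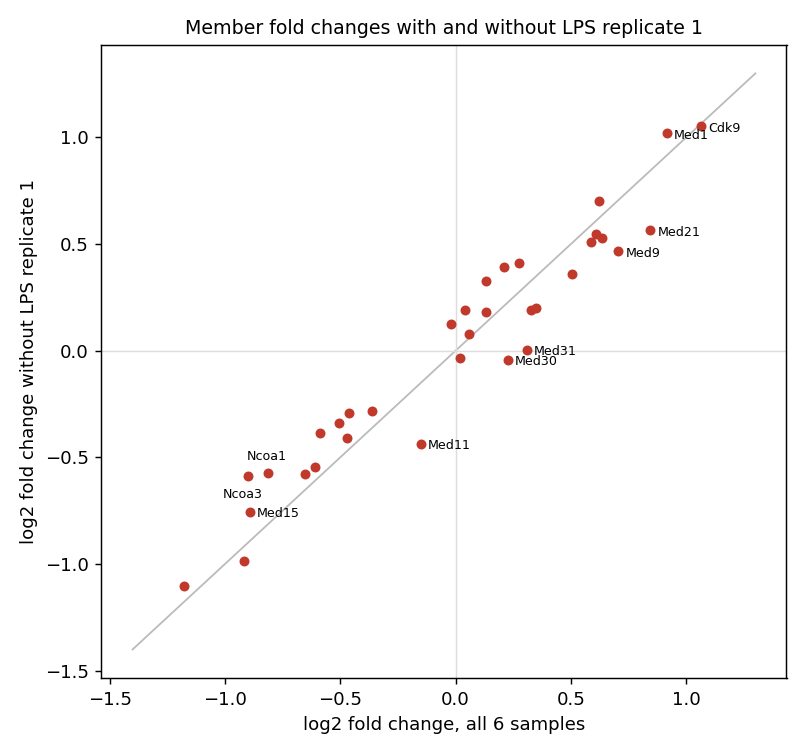
Log2 fold change (15-HETE + LPS minus LPS) of the 34 members with all 6 samples (x) and without LPS replicate 1 (y), with a grey line of equality. Cdk9 and Med1 change little, at 1.06 and 0.92 on x and 1.05 and 1.02 on y, while Ncoa3 moves to -0.59 and Med31 to 0.01.

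Of 49 other genes of transcription coregulation 41 were measured, and limma called 0 higher and 0 lower, with 13 (31.7%) at an unadjusted p under 0.05, beside 27.1% of the brighter genes. The median log2 fold change was -0.04, and the groups did not overlap for 22 genes (53.7%), 15 of them lower, beside 47.8% of the brighter genes. The trend fit called 5 of them higher and 6 lower, or 26.8%, where 11.2% of all genes and 17.3% of the brighter genes passed. Of the 41 genes 39 were above the array median. Among P-TEFb partners 2 of 4 measured genes of the pausing factor NELF, Nelfcd (-0.81, adjusted p = 0.0142 with the intensity trend) and Nelfb (-0.67, adjusted p = 0.0430), and the elongation scaffold Aff1 (-0.68, adjusted p = 0.0482) were lower, and the elongation factor Ell was higher (0.52, adjusted p = 0.0460). The remaining NELF genes did not pass, Nelfa at -0.39 (adjusted p = 0.137 with the intensity trend) and Nelfe at 0.22 with overlapping groups. Hexim1, which holds P-TEFb inactive, had 1153, 466 and 1508 with 15-HETE, against 1619, 1634 and 1548 with LPS alone (-0.78, adjusted p = 0.387 from limma), and Larp7, which binds the RNA of that inactive complex, had -0.04.

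Among other coregulators the corepressor Ctbp1 (-0.89, adjusted p = 0.0114 with the intensity trend), the arginine methyltransferase Carm1, a partner of p160 coactivators (-0.69, adjusted p = 0.0208), and Ncoa5 (-0.64, adjusted p = 0.0205) were lower. The corepressor scaffold Sin3b (0.61, adjusted p = 0.0172) and the deacetylase Hdac1 (0.58, adjusted p = 0.0452) were higher. Hdac3, Tbl1x and Gps2, partners of Ncor1, had 0.18, 0.08 and 0.08 with overlapping groups. Of 12 subunits of RNA polymerase II 7 were measured, and 0 passed limma, with or without the intensity trend, and 0 had an unadjusted p under 0.05. All 7 values were above 0 with every sample, with a median of 0.36, and Polr2f and Polr2g were the highest at 0.68 and 0.67. Without LPS replicate 1 only 4 were above 0 and the median was 0.20, with Polr2k at -0.17, Polr2h at -0.03 and Polr2j at -0.0012. LPS replicate 1 was the lowest LPS sample for 6 of the 7 genes, such as 16753 for Polr2g, where the other LPS samples had 32416 and 31076.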

How the data were processed

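The deposited intensities were made by the authors from mouse genome survey arrays read on a chemiluminescent analyzer, by its array software and quantile normalization. Their later filter on signal-to-noise and flags is not part of the values, whose sorted columns differ by at most 0.223%. Background correction is not given in the sources used here. The log2 of each intensity was used, gene symbols came from the platform's table (14411 probes with 1 symbol, 247 with several, 18354 with none), and limma 3.58.1 in R 4.3.3 was fitted over 33012 probes (default prior, two-sided, Benjamini-Hochberg). Precision is limited by how few arrays there are. The methods give 3 biological replicates a group, and a table footnote of the authors describes 3 independent experiments. Limma's p-values weigh the group difference against the spread between replicates, with the variance moderated across probes.

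The members and gene lists were chosen with earlier results of these data known. Values in every sample were given for Med1, Cdk9, members past the call in either fit and the lowest p of each role, and for others where ranges or doubts are described. The unequal-variance t-test of the methods was run over all probes, with the methods' cut of 0.025 and their 1.8-fold rule in 2 of 3 treated samples, and over the probes that met the rule. Other alternatives were a robust prior (statmod 1.5.0), centring, repeated quantile normalization, an offset of 50, brighter probes only, other choices of probe, a replicate block, and fits lacking each sample in turn. The fits were tested on simulated data. Promoter windows came from RefSeq.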

Additional observations from a re-analysis of the deposited data

How the results depend on the processing

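Limma called 0 members higher and 0 lower with the default prior, the robust prior, centring, repeated quantile normalization and the brightest LPS probe. Centring and repeated normalization could hardly change a call, since the sorted columns already differed by at most 0.223%. Among the members only Ncoa4 had another probe to choose. The intensity trend called 6 higher and 5 lower, and the brighter probes alone 5 and 3. An offset of 50 called 1 higher (Cdk9), as did the mean of all probes of a gene and the methods' t-test over the probes past the fold rule, which was chosen after seeing the data. The other coregulation genes called were 5 higher and 6 lower with the intensity trend and 2 and 6 among the brighter probes. On the array 168 probes were higher and 146 lower by limma, 1279 and 1638 with the intensity trend, 100 and 62 with the robust prior, 269 and 256 with the offset, 1207 and 1589 among the brighter probes, 362 and 227 genes with averaged probes, and 50 and 38 by the t-test over the probes past the fold rule.

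Any fit on 5 samples with the default prior called 0 probes, so calls lost there say nothing of single genes. With the intensity trend as well, members called ran from 1 to 8 higher and from 1 to 10 lower, other coregulation genes from 1 to 9 and from 0 to 8, and RNA polymerase II subunits from 0 to 2 higher. Probes of the array called in the same runs went from 535 to 2595 higher and from 688 to 2540 lower. The median over members ran from 0.03 to 0.12. Signs turned for Med7 (-0.033 to 0.049, and -0.015 without 15-HETE + LPS replicate 2), Med11 (-0.44 to 0.0058), Med17 (-0.044 to 0.19, with -0.036 and -0.027 without LPS replicates 2 and 3), Med24 (-0.056 to 0.33), Med25 (-0.11 to 0.13) and Med30 (-0.041 to 0.37), with either prior, all with adjusted p over 0.05 in the fit with every sample. The cause was not tested.

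Whether same-numbered samples were paired is not given in the sources used here. Their deviations from the group means correlated at -0.024, 0.0035 and 0.0237, beside -0.0538 to 0.0464 between samples of unlike number. Correlations over all probes cannot show a pairing that touches only some genes. With the replicate block limma called 0 members and 0 probes of the array. With the replicate block and the intensity trend, added after seeing the data, 4 members were higher and 5 lower, with 2 and 5 of the other coregulation genes and 1058 and 1266 probes of the array. The 3 arrays a group limit which differences can be told from noise for the dim probes of Med14, Med29 and Ncoa2.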
